A study of Mus musculus with 12 samples.

Results

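The loci examined here carry the UDP-glucuronosyltransferases (UGTs), the cytosolic sulfotransferases (SULTs) and the soluble glutathione S-transferases (GSTs) of mouse liver. A locus was taken when at least 1 of its gene symbols began with Ugt1, Ugt2, Ugt3, with Sult and a digit, or with Gst and the letter a, k, m, o, p, t or z followed by a digit. This gave 48 of the 27109 loci, of which 13 were UGT, 16 SULT and 19 GST loci, carrying 59 symbols of these families. The rule itself uses gene symbols and no expression value. The assembly merged several genes in 10 of the loci, so a value for the Ugt1a locus or for Gstm1 with Gstm4 belongs to a group of neighbouring genes.

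Livers came from C57BL/6 mice that were wild type or LsATF4-/-, a liver-specific deletion of Atf4, which encodes a transcription factor made during stress of the endoplasmic reticulum (ER). Mice of each genotype were injected intraperitoneally with tunicamycin at 1 mg/kg, a blocker of N-linked glycosylation that causes ER stress, or with its solvent, DMSO at 0.3%, and livers were taken 6 h later. The 12 poly(A) RNA libraries make 4 groups of 3, 1 for each genotype and injection. The sources used here name neither the promoter driving the recombinase nor the deleted exons, and give no age or sex.

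UGTs sit in the ER membrane and join glucuronic acid from UDP-glucuronic acid to bilirubin, steroids, bile acids and drugs. SULTs work in the cytosol and pass sulfate from the donor PAPS to phenols, steroids, bile acids and amines, while GSTs join glutathione to electrophiles and also reduce or isomerise some substrates. Liver is the main site of these conjugation reactions, often called phase II of drug metabolism, and their products leave the hepatocyte through ABC transporters.

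The authors' deposited table gives 1 FPKM (fragments per transcript length, scaled to the mapped fragments) per locus and group, made from the 3 libraries of that group, with a log2 fold change, p and q for each pair of groups. A locus is said here to have risen or fallen when its deposited q was under 0.05 with a usable test. Values per library and read counts were not used here, so a spread between mice cannot be given, depth is unknown, and the standard errors (SE) below were computed from the deposited fold change and test statistic. Lane 5 held the 3 libraries of the knockout given DMSO, and lane 4 all 9 others, so lane cannot be told apart from group where that group is used. In the authors' deposited table the locus of Atf4, merged with Cacna1i, stood at 46.9 and 22.8 FPKM with DMSO in wild type and knockout (log2 -1.04, q 0.270) and at 356 and 114 FPKM with tunicamycin (log2 -1.64, q 0.000396). Of the markers of other tissues, the adrenal list summed to 9.24, 23.5, 6.76 and 1310 FPKM, the skeletal muscle list to 1.71, 5.96, 2.23 and 406 FPKM, and the fat list to 17.0, 24.6, 26.2 and 258 FPKM, in the order wild type given DMSO, wild type given tunicamycin, and the knockout likewise. All 10 adrenal, 10 muscle and 8 fat genes were above 0 in the knockout given tunicamycin, where these sums were highest, and their part in the results below was not tested. Of the 8 hepatocyte markers Alb, which encodes albumin, is listed at 0 in every group, with the status Cuffdiff gives to loci with too many fragments to process, and Trf, which encodes transferrin, is listed at 0 in both DMSO groups but not with tunicamycin. Without Trf the hepatocyte list summed to 17386.5, 11625, 13812 and 9355 FPKM in the order used above.

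In wild-type liver given DMSO the conjugating enzymes were abundant. Summed over its loci, each class stood in wild type with DMSO at 4818 FPKM for GST, 2831 FPKM for UGT and 1890 FPKM for SULT, together 1.40% of all FPKM in the table. In that group 22 of the 48 loci reached 100 FPKM, and 15 ranked among the 500 most abundant loci. The 3 most abundant loci made up 74.8% of the SULT sum, 65.2% of the GST sum and 46.1% of the UGT sum, the last including Ugt1a10, an entry on the interval of the Ugt1a locus. The 7 loci that were tested in no comparison (Gsto2, Gstt4, Sult2b1, Sult4a1, Sult6b1 and both loci of Sult1c1) reached 0.176 FPKM at most.

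**Figure D1:**
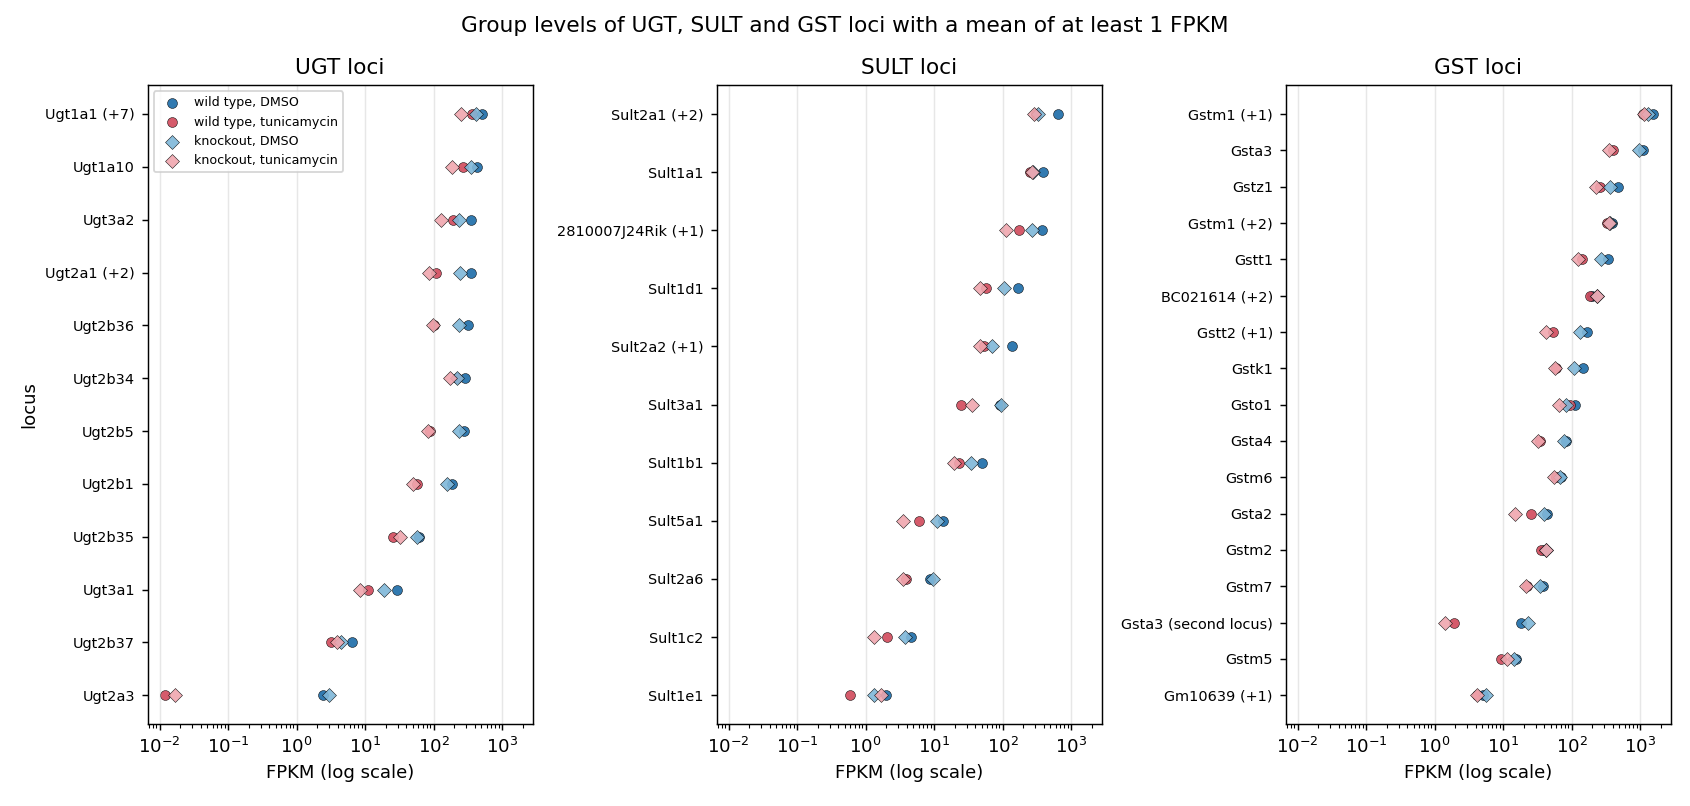
FPKM (horizontal log axis) of each UGT, SULT and GST locus with a mean of at least 1 FPKM (40 loci), with circles for wild type, diamonds for knockout, blue for DMSO and red for tunicamycin. Levels span from the mu-class locus of Gstm1 and Gstm4, at 1112 to 1549 FPKM, down to Ugt2a3, whose 2 tunicamycin values lie far left of the rest, and labels with a plus sign give how many further symbols a locus holds.

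All 3 classes were lower with tunicamycin in wild-type liver. Of 41 tested loci 27 fell and none rose, against 19% of all tested loci that fell and 18.1% that rose. The log2 change was below zero at all 41, and at 7632 of all 14998 tested loci. The median log2 change was -1.15 over the 41 loci and -0.02 over all tested loci. The share of loci that fell was 90.9% for SULT (10 of 11), 61.5% for UGT (8 of 13) and 52.9% for GST (9 of 17), with medians of -1.15, -1.39 and -0.79. The order of these shares depends on the threshold, since at q under 0.01 the counts were 4 SULT, 8 UGT and 8 GST loci. Among all loci with a mean of at least 10 FPKM, 25.7% fell. Of 6 tested hepatocyte markers 2 fell and none rose, with a median log2 change of -0.82, and of 8 endothelial markers 3 rose and none fell. The part of these markers in the result was not tested.

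The same families fell in the knockout. Of 41 tested loci 22 fell and none rose, against 14.8% and 18.1% of all tested loci. The log2 change was below zero at 38 of the 41, and at 7682 of all 15534 tested loci. By class 7 of 13 UGT, 6 of 11 SULT and 9 of 17 GST loci fell, with medians of -0.90, -1.14 and -0.66, beside 0.01 over all tested loci, and 20.6% of all loci with a mean of at least 10 FPKM fell. These 22 loci were called lower in both genotypes, 5 more were called lower in wild type, and no locus was called lower in the knockout without being called in wild type. Over all tested loci 2857 fell in wild type and 2305 in the knockout. The share of all tested loci called in 1 genotype alone was not computed, so these overlap counts are not a result about these families. Both comparisons rest on their own DMSO group, and in the knockout the DMSO and tunicamycin libraries were also on different lanes. The summed adrenal, muscle and fat markers given above differ between those same 2 knockout groups. Of 6 tested hepatocyte markers 2 fell and none rose there (median log2 -0.63), and of 8 endothelial markers 4 fell and none rose, and the part of all these markers was not tested.

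**Figure D2:**
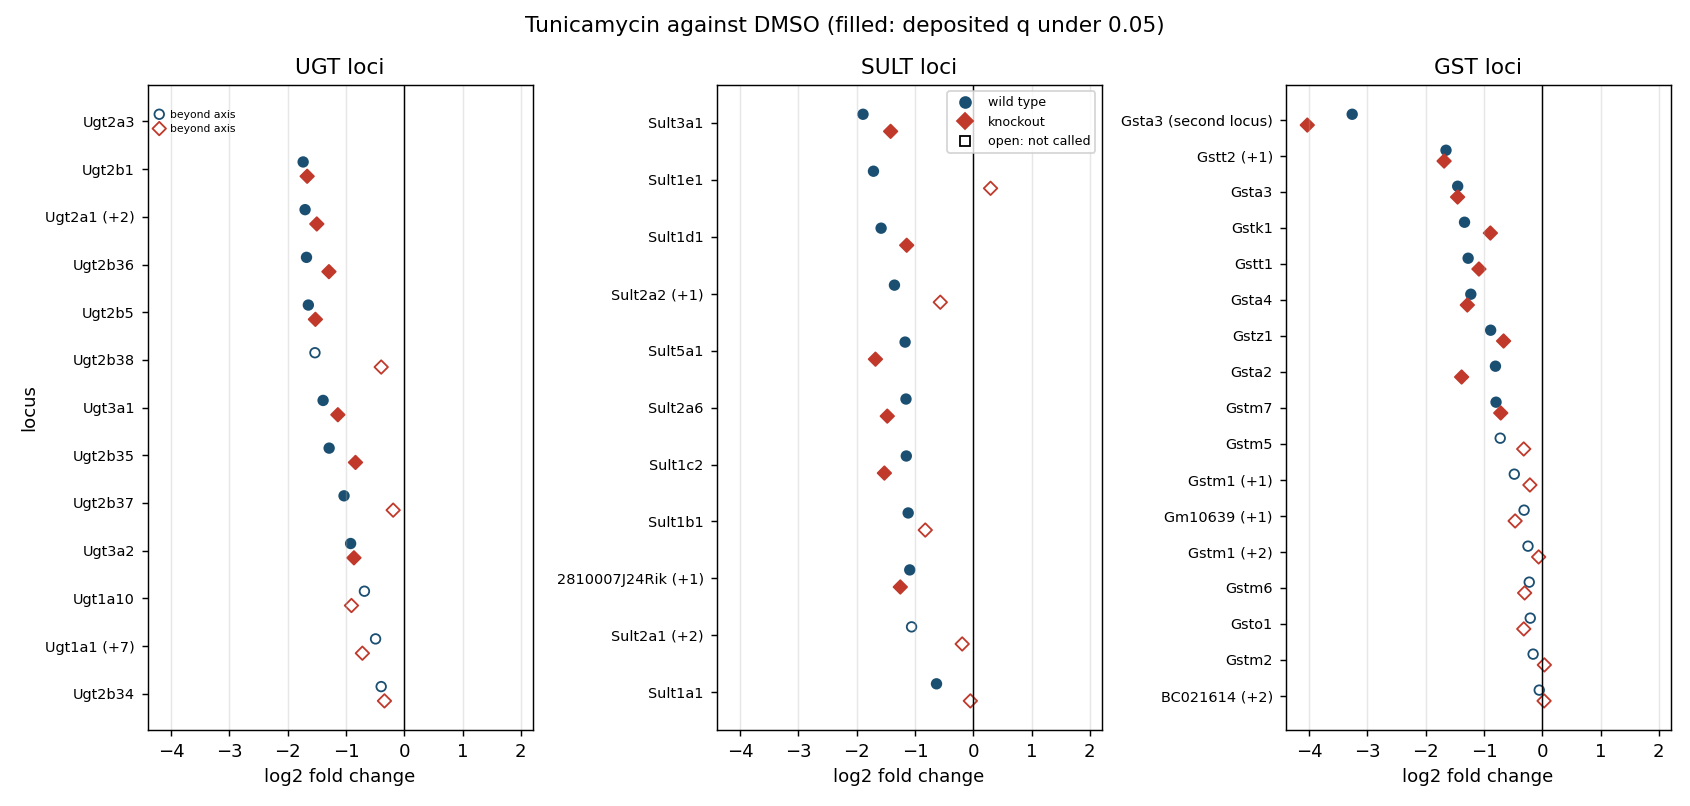
Deposited log2 fold change, tunicamycin against DMSO, of each tested UGT, SULT and GST locus, in wild type (blue circles) and knockout (red diamonds), with filled symbols for loci called at a deposited q under 0.05. Every filled symbol lies left of zero, and the mu, omega and pi GST loci except Gstm7 are open, while both values of Ugt2a3 (-7.67 and -7.44, not called) lie beyond the axis.

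The summed levels give the size of the drop for the class as a whole. In wild type, tunicamycin left 50.8% of the UGT sum (1438 FPKM), 48.2% of the SULT sum (912 FPKM) and 59.1% of the GST sum (2849 FPKM). In the knockout the sums went from 2190 to 1109 FPKM for UGT, from 1207 to 832 FPKM for SULT and from 4122 to 2776 FPKM for GST, leaving 50.6%, 68.9% and 67.3% of the knockout DMSO level. The order of the classes depends on the merged loci. Over loci with a single symbol, tunicamycin left 49.0% for UGT, 50.7% for SULT and 46.2% for GST in wild type. In the knockout these loci kept 50.3%, 70.8% and 48.6%. The sum of FPKM over the whole table also differed between groups, at 681835 in wild type with DMSO, 560124 with tunicamycin, and 572124 and 508164 in the knockout. Taken as a share of all FPKM, the 48 loci went from 1.40% to 0.928% in wild type and from 1.31% to 0.928% in the knockout. With DMSO the shares in wild type and knockout were 0.415% and 0.383% for UGT, 0.277% and 0.211% for SULT, and 0.707% and 0.720% for GST. The GST share was thus not lower in the knockout given DMSO, unlike the GST sum.

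**Figure D3:**
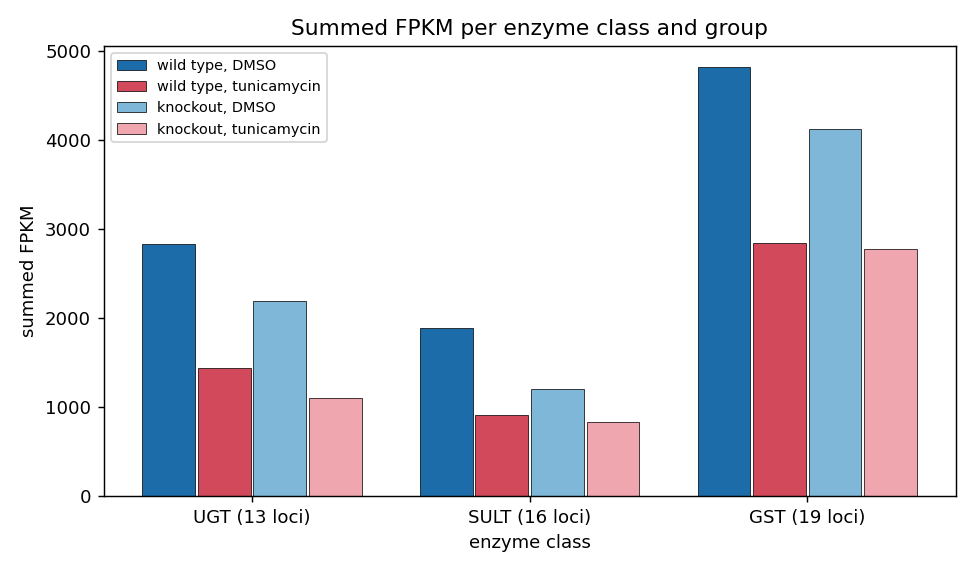
Summed FPKM (vertical axis, from 0) of the loci of each enzyme class in the 4 groups, 1 pooled value per bar and so without error bars. In each class both tunicamycin bars are shorter than both DMSO bars, and knockout with DMSO is shorter than wild type with DMSO.

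Among the UGTs, the genes of the Ugt2 family on chromosome 5 carried the lowest called log2 changes. They lie in one stretch of mm9 chromosome 5, from base 87318794 to 88020636, which also holds the Sult1 genes Sult1b1, Sult1d1 and Sult1e1. UGT2B enzymes glucuronidate steroid hormones, bile acids and fatty acid derivatives. Ugt2b1 stood in the authors' deposited table at 188 FPKM in wild type with DMSO, 56.5 with tunicamycin, and at 157 and 49.5 FPKM in the knockout. It fell in both genotypes, with log2 changes of -1.73 (SE 0.21, q 0.000396) and -1.66 (SE 0.20, q 0.000396). Ugt2b36 stood at 322, 101, 238 and 97.3 FPKM in the same order in the authors' deposited table, log2 -1.68 (SE 0.21) and -1.29 (SE 0.21), both called. Ugt2b5 gave 276, 88.2, 239 and 83.1 FPKM in the authors' deposited table, log2 -1.64 (SE 0.21) and -1.52 (SE 0.21). In these 3 genes both tunicamycin values lay near one another and well below both DMSO values, whichever the genotype.

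Ugt2b35 also fell in both genotypes, from 61.7 to 25.3 FPKM in wild type and from 57.7 to 32.4 FPKM in the knockout, with log2 changes of -1.29 (SE 0.19) and -0.84 (SE 0.21) in the authors' deposited table. The merged locus of Ugt2a1, Ugt2a2 and Ugt2a3 fell from 351 to 108 FPKM in wild type and from 246 to 87.1 FPKM in the knockout, log2 -1.70 (SE 0.23) and -1.50 (SE 0.23) in the authors' deposited table. A further locus named Ugt2a3 alone lies inside that merged interval and was not called, with 2.45 and 0.0120 FPKM in wild type and an SE of 7.69 on its log2 change of -7.67 in the authors' deposited table. Reads cannot be assigned with certainty between these overlapping loci, or between the near-identical Ugt2b copies. Ugt2b37, a minor member, fell in wild type from 6.46 to 3.16 FPKM (log2 -1.03, SE 0.29, q 0.00553), and in the knockout it went from 4.45 to 3.90 FPKM, which was not called (q 0.718), in the authors' deposited table. Ugt2b34 and Ugt2b38 were not called in any comparison. Ugt2b34 was abundant, at 288 and 219 FPKM in wild type and 224 and 177 FPKM in the knockout in the authors' deposited table, with log2 changes of -0.39 (SE 0.23) and -0.34 (SE 0.23).

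All 7 Ugt2b genes hold a short element just upstream of their start. In the RefSeq promoters of mouse build GRCm38.p6, which run from 250 bases before to 50 after each start, the letters GTTA, then any 4 bases, then TTAAC, occur in 62 of 32851 promoters (0.189%). Both strands were searched. Of the 51 symbols examined here that matched a RefSeq promoter, 8 hold it, all 7 Ugt2b genes and Ugt3a1, and no SULT or GST promoter does. These letters were searched after the promoters had been read, so the match is a description. The stretches below show the match (capitals) with 16 bases on either side, on the gene's own strand, because the same element stands in members with large changes, such as Ugt2b1, and in Ugt2b34, which was not called.
Ugt2b1: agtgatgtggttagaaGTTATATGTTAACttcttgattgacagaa
Ugt2b36: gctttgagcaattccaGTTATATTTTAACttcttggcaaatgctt
Ugt2b5: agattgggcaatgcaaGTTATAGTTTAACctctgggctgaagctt
Ugt2b35: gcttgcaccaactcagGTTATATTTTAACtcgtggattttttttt
Ugt2b37: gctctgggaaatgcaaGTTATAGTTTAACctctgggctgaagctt
Ugt2b38: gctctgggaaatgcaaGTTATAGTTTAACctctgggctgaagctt
Ugt2b34: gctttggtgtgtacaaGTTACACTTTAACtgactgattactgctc
Ugt3a1: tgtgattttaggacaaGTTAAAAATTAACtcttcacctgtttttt
The Ugt2b1 stretch is chr5:86926564-86926608 on the minus strand and its match spans bases -89 to -77 from the start. The Ugt2b34 stretch is chr5:86906982-86907026, also on the minus strand, with the match at -73 to -61. The Ugt3a1 stretch is chr15:9279683-9279727 on the plus strand, with the match at -130 to -118. The 45 bases printed for Ugt2b37 and Ugt2b38 are identical letter for letter.

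The Ugt1a locus behaved less clearly than Ugt2b. This locus encodes a set of enzymes that share their last exons and differ in the first, among them Ugt1a1, the enzyme that glucuronidates bilirubin. In the authors' deposited table its merged locus stood at 514 and 366 FPKM in wild type and at 414 and 252 FPKM in the knockout. The log2 changes of -0.49 (SE 0.31, q 0.281) and -0.72 (SE 0.30, q 0.0709) were not called. A second entry on the same interval, named Ugt1a10, gave 433, 270, 354 and 189 FPKM in the authors' deposited table, also without a call and with SE of 0.73 and 0.69.

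Both members of the Ugt3a family on chromosome 15, enzymes that use UDP-sugars other than glucuronic acid, fell with tunicamycin in both genotypes. Ugt3a2 stood at 359 and 190 FPKM in wild type and 235 and 129 FPKM in the knockout in the authors' deposited table, log2 -0.92 (SE 0.25) and -0.86 (SE 0.24). Ugt3a1 stood at 29.0 and 11.1 FPKM in wild type and 18.8 and 8.52 FPKM in the knockout, log2 -1.39 (SE 0.20) and -1.14 (SE 0.22) in the authors' deposited table.

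Almost every tested sulfotransferase fell in wild type. Sult3a1, an amine sulfotransferase, had the lowest log2 change of the class there. It stood at 92.4 and 24.9 FPKM in wild type and 96.0 and 36.0 FPKM in the knockout in the authors' deposited table, log2 -1.89 (SE 0.24) and -1.42 (SE 0.22). Sult1d1, which sulfates catecholamines, stood at 170, 57.0, 104 and 47.3 FPKM (DMSO and tunicamycin in wild type, then in the knockout) as the authors' deposited table gives it, and fell in both genotypes, with log2 changes of -1.58 (SE 0.20) and -1.14 (SE 0.21). The locus of Sult2a7 and 2810007J24Rik, of the hydroxysteroid and bile acid sulfotransferase family, stood at 376, 177, 266 and 112 FPKM in the authors' deposited table, with log2 changes of -1.09 (SE 0.26) and -1.25 (SE 0.26). At each of these 3 loci both DMSO values lay above both tunicamycin values. The less abundant Sult5a1, Sult2a6 and Sult1c2, at 13.6, 8.62 and 4.57 FPKM in wild type with DMSO in the authors' deposited table, also fell in both genotypes, with log2 changes from -1.15 to -1.17 in wild type and from -1.47 to -1.68 in the knockout.

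Sulfotransferases made up 4 of the 5 loci that were called lower in wild type and not in the knockout. At all 4 the wild-type q was above 0.01, so these calls do not hold at that threshold. Sult1a1, the main phenol sulfotransferase, stood at 395 and 255 FPKM in wild type and at 277 and 268 FPKM in the knockout in the authors' deposited table, log2 -0.63 (SE 0.23, q 0.0267) and -0.05 (SE 0.23, q 0.931). The knockout level with DMSO thus already lay close to both tunicamycin levels. Sult1b1, which sulfates thyroid hormones and phenols, stood at 49.7 and 22.9 FPKM in wild type and at 34.9 and 19.8 FPKM in the knockout in the authors' deposited table, log2 -1.11 (SE 0.35, q 0.0119) and -0.82 (SE 0.37, q 0.0839). The locus of Sult2a2 and Sult2a5 stood at 135 and 53.1 FPKM in wild type and at 69.7 and 47.2 FPKM in the knockout in the authors' deposited table, log2 -1.35 (SE 0.51, q 0.0127) and -0.56 (SE 0.42, q 0.294). Sult1e1, the estrogen sulfotransferase, was low in every group, at 1.97 and 0.603 FPKM in wild type and at 1.35 and 1.66 FPKM in the knockout in the authors' deposited table, log2 -1.71 (SE 0.59, q 0.0221) and 0.30 (SE 0.63, q 0.792). It was the only tested SULT locus with a knockout log2 change above zero.

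The difference between the responses of both genotypes was tested for each locus as the knockout log2 change minus the wild-type log2 change, with a normal test adjusted by Benjamini-Hochberg over 14510 loci. Of those loci 1.01% were called, and 5.25% had an unadjusted p under 0.05. None of the 5 loci just named passed. The difference was 2.01 (SE 0.87, p 0.0204, adjusted p 0.598) for Sult1e1, 0.84 (SE 0.41, p 0.0380, adjusted p 0.835) for Ugt2b37 and 0.58 (SE 0.32, p 0.0722) for Sult1a1. It was 0.79 (SE 0.66) for Sult2a2 with Sult2a5 and 0.29 (SE 0.51) for Sult1b1. A call in wild type without one in the knockout is therefore not shown to be a difference between genotypes in any of these loci.

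One merged locus, Sult2a1 with Sult2a3 and Sult2a4, passed that test, but its deposited statistics conflict. These genes encode hydroxysteroid sulfotransferases, and the locus stood at 642 and 309 FPKM in wild type and at 333 and 292 FPKM in the knockout in the authors' deposited table. The log2 changes were -1.06 and -0.19, a difference of 0.868 (SE 0.159, adjusted p 2.07e-05). In the authors' deposited table the wild-type test statistic was -5.48 with a p of 0.188, whereas Ugt2b1 had a statistic of smaller size, -4.86, with a p of 5e-05. With the SE taken from the deposited p instead, the difference had an SE of 1.10 and a p of 0.428, and no UGT, SULT or GST locus passed. None of the 4 comparisons called this locus.

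Among the GSTs the mu class, which includes the most abundant locus of all 3 families, had 1 of 6 loci called lower in each genotype, near the 19% and 14.8% of all tested loci. The alpha class had 4 of 5, among them both entries of Gsta3, and the theta class 2 of 2 in each, and the difference between the classes was not tested. The locus of Gstm1 and Gstm4 stood at 1549 and 1112 FPKM in wild type and at 1311 and 1132 FPKM in the knockout in the authors' deposited table, log2 -0.48 (SE 0.33, q 0.329) and -0.21 (SE 0.34, q 0.751). An overlapping locus that adds Gstm3 stood at 395, 334, 367 and 352 FPKM in the authors' deposited table, without a call. These mu genes are near-identical neighbours on chromosome 3, so the split of reads among them is uncertain. The mu locus that fell was Gstm7, at 38.5 and 22.2 FPKM in wild type and 35.0 and 21.4 FPKM in the knockout in the authors' deposited table, log2 -0.79 (SE 0.21) and -0.71 (SE 0.21).

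Gsta3, an alpha-class enzyme that detoxifies epoxides, had the largest loss in FPKM of any member. It stood at 1106 and 405 FPKM in wild type and at 952 and 348 FPKM in the knockout in the authors' deposited table. Its log2 change was -1.45 in each genotype, with SE of 0.28 and 0.31 (q 0.000396 and 0.00140). A second, smaller locus named Gsta3 on the same interval of chromosome 1 went from 18.2 to 1.90 FPKM in wild type and from 22.9 to 1.41 FPKM in the knockout, as the authors' deposited table gives them, log2 -3.26 (SE 0.82) and -4.03 (SE 0.85), the steepest called changes among all members. Gsta4, which conjugates the lipid peroxidation product hydroxynonenal, stood at 82.0, 35.1, 77.6 and 31.9 FPKM in the authors' deposited table, with log2 changes of -1.22 (SE 0.20) and -1.28 (SE 0.21). Gsta2 stood at 44.3, 25.4, 39.0 and 15.0 FPKM in the authors' deposited table, log2 -0.80 (SE 0.26) and -1.38 (SE 0.29), and the difference between genotypes of -0.58 (SE 0.39) did not pass. For these alpha genes both tunicamycin values lay below both DMSO values.

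The theta class, active on small halogenated compounds, fell in both genotypes. Gstt1 stood at 346 and 143 FPKM in wild type and at 266 and 125 FPKM in the knockout in the authors' deposited table, log2 -1.27 (SE 0.31) and -1.08 (SE 0.31). The locus of Gstt2 and Gstt3 stood at 168, 53.6, 135 and 42.2 FPKM in the authors' deposited table, log2 -1.65 (SE 0.34) and -1.68 (SE 0.35). Gstz1, the maleylacetoacetate isomerase of tyrosine breakdown, stood at 485, 263, 364 and 230 FPKM in the authors' deposited table, log2 -0.88 (SE 0.25) and -0.66 (SE 0.25). Gstk1, found in mitochondria and peroxisomes, stood at 149, 59.1, 107 and 58.0 FPKM in the authors' deposited table, log2 -1.33 (SE 0.20) and -0.89 (SE 0.20).

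The pi and omega classes were not called with tunicamycin in either genotype. The pi locus of Gstp1 and Gstp2 stood at 196 and 189 FPKM in wild type and at 234 and 239 FPKM in the knockout in the authors' deposited table, log2 -0.05 (SE 0.19) and 0.03 (SE 0.20). Its 4 values lay close together, with the knockout above wild type. Gsto1, which reduces dehydroascorbate and methylated arsenic, stood at 111 and 96.3 FPKM in wild type and at 81.9 and 65.8 FPKM in the knockout in the authors' deposited table, log2 -0.20 (SE 0.19) and -0.32 (SE 0.19). Gstm2, Gstm5, Gstm6 and the locus of Gsta1 were not called either, with wild-type log2 changes from -0.72 to -0.16 in the authors' deposited table.

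Deletion of Atf4 alone was compared under DMSO. Of 41 tested loci 4 were lower in the knockout and none higher, against 1.47% of all tested loci lower and 1.39% higher, and 2.55% lower among those with a mean of at least 10 FPKM. Values were below wild type at 34 of the 41. They were also below it at 8743 of all 14788 tested loci, and at 4568 of 5854 with a mean of at least 10 FPKM. Medians were -0.37 for UGT, -0.51 for SULT and -0.14 for GST. Beside these stood -0.07 over all tested loci and -0.16 over those with a mean of at least 10 FPKM. The 4 loci were Ugt3a1 (log2 -0.63, SE 0.20, q 0.00914), Ugt3a2 (log2 -0.61, SE 0.25, q 0.0495), Sult1d1 (log2 -0.71, SE 0.21, q 0.00315) and Sult2a2 with Sult2a5 (log2 -0.96, SE 0.37, q 0.0364) in the authors' deposited table. Their levels in the knockout were 64.7%, 65.5%, 61.3% and 51.5% of wild type. No GST locus was called. The call is lost at all 4 loci when q is adjusted within this comparison alone, the lanes differ between its groups, and endothelial markers (7 of 8 higher, 90.3 against 138 summed FPKM) and stellate cell markers (4 of 8 higher) moved with it. The part of lane and of these markers in the result was not tested, and fewer cells of a type and less RNA per cell cannot be told apart in whole liver.

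Under tunicamycin, where both genotypes were on lane 4, 3 of 40 tested loci were lower in the knockout and none higher, against 2.19% of all tested loci lower and 3.73% higher, and 3.35% lower among those with a mean of at least 10 FPKM. They were Gsto1 (log2 -0.55, SE 0.19, q 0.0240), Gsta2 (log2 -0.76, SE 0.29, q 0.0389) and the locus of Sult2a7 (log2 -0.66, SE 0.23, q 0.0189) in the authors' deposited table. Under DMSO Gsto1 had a log2 value of -0.44 (q 0.0752) in the authors' deposited table. The locus of Sult2a7 stood there at -0.50 (q 0.209) and Gsta2 at -0.18 (q 0.697). How far the calls under DMSO and under tunicamycin overlap over all tested loci was not computed. Medians by class were -0.25 for UGT, -0.17 for SULT and -0.12 for GST, beside -0.04 over all tested loci. No locus stayed called with q adjusted within this comparison. The adrenal, muscle and fat marker sums given above stand at their highest in this knockout group, and their part was not tested.

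**Figure D4:**
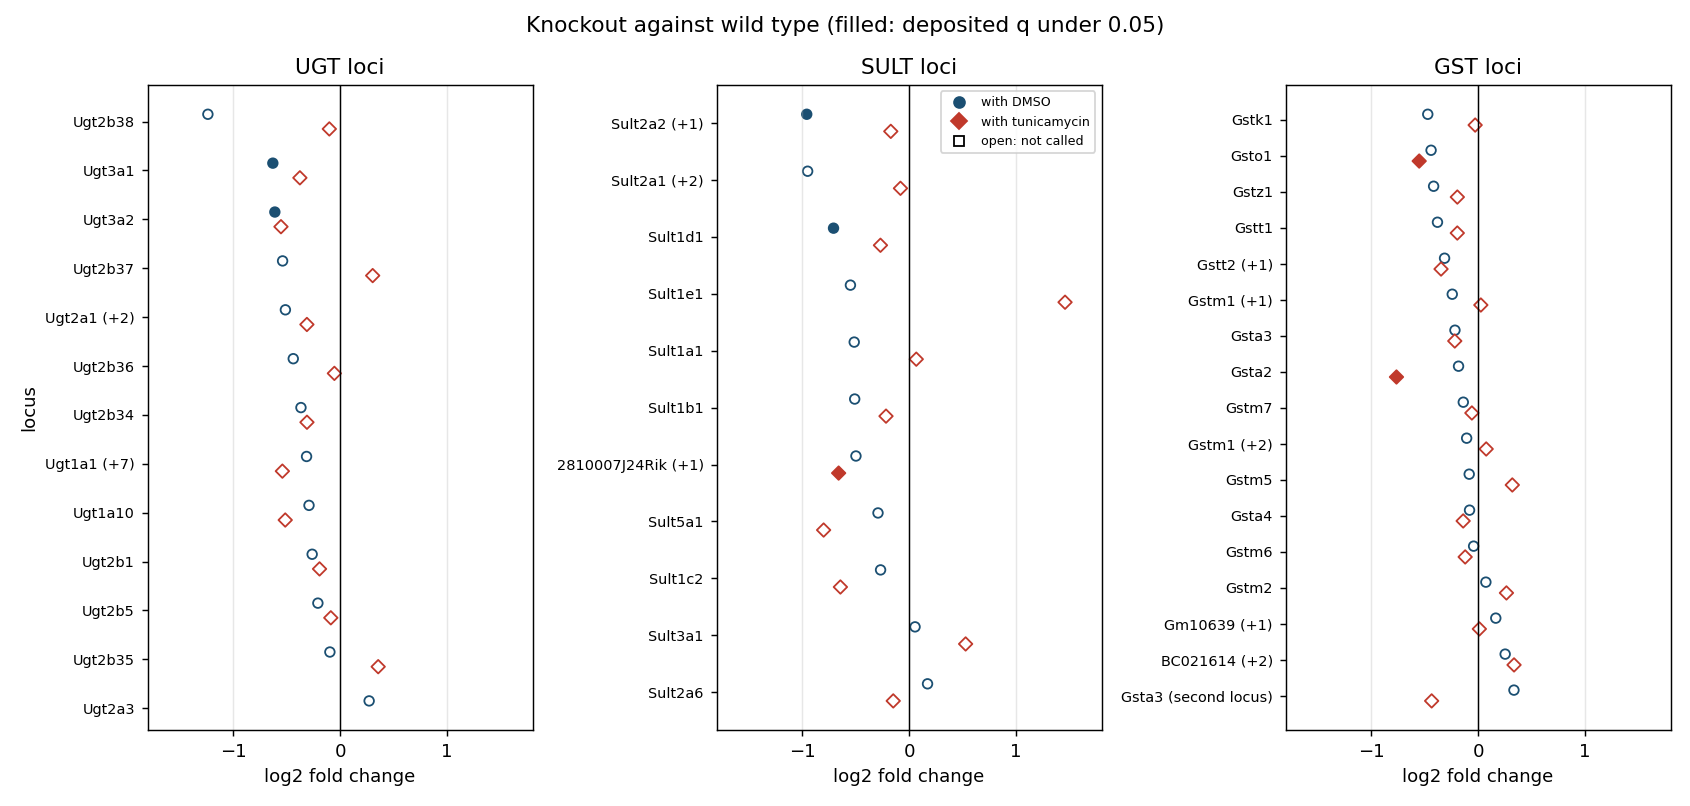
Deposited log2 fold change, knockout against wild type, of each tested UGT, SULT and GST locus, with DMSO (blue circles) and with tunicamycin (red diamonds), filled where the deposited q was under 0.05. There are 4 filled circles, among the Ugt3a genes, Sult1d1 and Sult2a2, and 3 filled diamonds, at Gsto1, Gsta2 and the locus of 2810007J24Rik with Sult2a7, all left of zero.

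**Figure D5:**
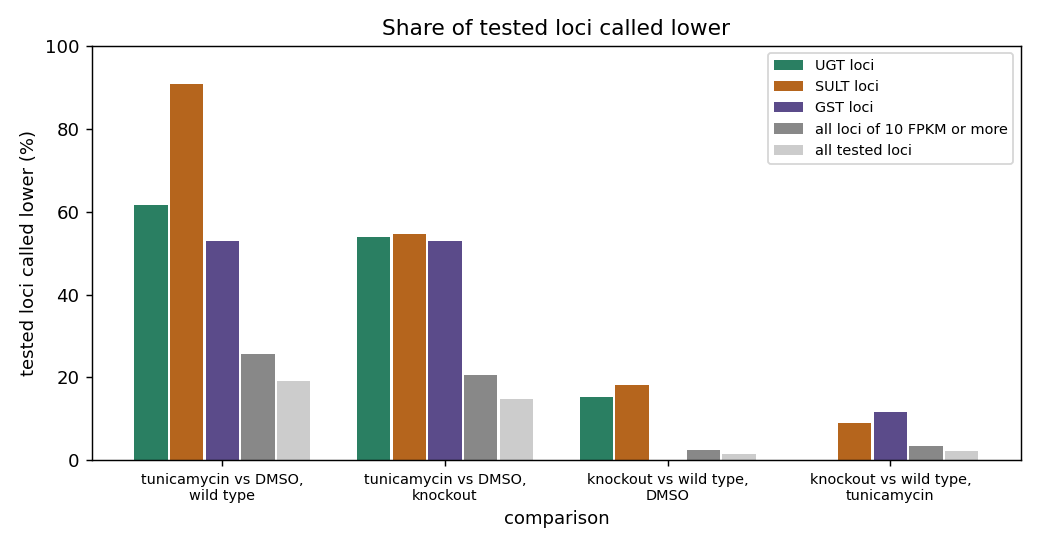
Share of tested loci called lower (vertical axis, percent) in each of the 4 comparisons, for the UGT, SULT and GST loci in colour. Dark grey bars are all loci with a mean of at least 10 FPKM, and light grey bars all tested loci. The coloured bars stand at 52.9% or above in both tunicamycin comparisons, beside 19% and 14.8% over all tested loci, and stand for 7 calls in all in both genotype comparisons.

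The genes that feed and serve these enzymes rose in some cases and fell in others. Over all tested loci 19% fell and 18.1% rose in wild type, and 14.8% fell and 18.1% rose in the knockout. The counts per list rest on few genes, and whether they differ from these shares was not tested. Of 6 genes that supply UDP-glucuronic acid and other UDP-sugars to UGTs, 2 fell and 1 rose with tunicamycin in wild type, and 1 fell and 1 rose in the knockout. Ugdh, which makes UDP-glucuronic acid, went from 67.2 to 47.6 FPKM in wild type (log2 -0.50, q 0.0411) and from 66.3 to 64.8 FPKM in the knockout (q 0.945) in the authors' deposited table. Slc35b1, an ER nucleotide carrier, rose from 53.3 to 196 FPKM in wild type (log2 1.88) and from 64.4 to 189 FPKM in the knockout (log2 1.55) in the authors' deposited table. Of 8 genes for sulfate and PAPS supply, 2 fell and 2 rose in each genotype. Papss2, the PAPS synthase that is abundant in liver, fell from 135 to 82.1 FPKM and from 113 to 65.2 FPKM, while Papss1 rose from 4.92 to 25.8 FPKM and from 6.38 to 25.9 FPKM, per the authors' deposited table. The sulfate transporter gene Slc26a2 rose from 1.39 to 17.0 FPKM in wild type and from 1.46 to 11.2 FPKM in the knockout in the authors' deposited table.

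Glutathione supply also went both ways. Of 8 tested genes 3 fell and 1 rose in wild type, and of 7 tested genes 3 fell and 2 rose in the knockout. Over all tested loci 19% fell and 18.1% rose in wild type, and 14.8% and 18.1% in the knockout. Gclc and Gclm, the subunits of the rate-limiting ligase of glutathione synthesis, fell from 69.3 to 40.2 FPKM and from 93.4 to 54.8 FPKM in wild type, and both also fell in the knockout, in the authors' deposited table. Chac1, which breaks glutathione down, rose from 1.96 to 70.5 FPKM in wild type and from 1.38 to 16.4 FPKM in the knockout in the authors' deposited table, while under tunicamycin it was lower in the knockout (log2 -2.10, q 0.000396).

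Of 13 tested conjugating enzymes that the symbol rule did not take, 8 fell and 1, Nat8, rose in wild type. Of 14 tested in the knockout 6 fell and none rose, beside 19% and 14.8% of all tested loci that fell. Mgst1, the microsomal glutathione transferase, fell from 3619 to 1343 FPKM in wild type and from 2731 to 1284 FPKM in the knockout in the authors' deposited table. The methyltransferase genes Tpmt, Nnmt and Inmt fell in both genotypes, whereas Nat2, Baat and Glyat, which joins glycine to acids, were not called with tunicamycin in either. Hpgds was not called either, at only 0.433 and 0.326 FPKM in wild type and 0.454 and 0.381 FPKM in the knockout in the authors' deposited table. Of 6 exporters of conjugates 3 fell and 1 rose in each genotype, where 18.1% of all tested loci rose in each. Abcc3 fell from 93.9 to 42.8 FPKM in wild type, Abcc4 rose from 1.29 to 10.6 FPKM and Abcc2, the main canalicular exporter, was not called at 185 and 153 FPKM, in the authors' deposited table.

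Of 13 genes for the receptors and partners that control these enzymes, 6 fell and none rose in wild type, and 8 fell and none rose in the knockout, beside 25.7% and 20.6% of all loci with a mean of at least 10 FPKM that fell. Nr1i3, which encodes the xenobiotic receptor CAR, fell from 177 to 15.2 FPKM in wild type (log2 -3.54) and from 148 to 15.7 FPKM in the knockout (log2 -3.23) in the authors' deposited table. Ahr, Ppara, Rxra, Cebpa and Por fell in both genotypes. The genes of PXR (Nr1i2) and HNF4A were called lower with tunicamycin in the knockout only. The log2 changes in wild type and knockout were -0.47 (q 0.0659) and -0.54 (q 0.0295) for Nr1i2. For Hnf4a they were -0.17 (q 0.695) and -0.72 (q 0.0112) in the authors' deposited table. A call in the knockout alone does not show a difference between genotypes. Of 8 CAR and PXR targets outside the 3 families 3 fell and 1 rose in wild type, and 4 fell and 1 rose in the knockout. Over all tested loci 19% fell in wild type and 14.8% in the knockout, and 18.1% rose in each. Cyp2c37, Aldh1a1 and Por fell in both genotypes, while Cyp2b10, a standard CAR target, rose from 39.6 to 214 FPKM in wild type and from 29.7 to 177 FPKM in the knockout in the authors' deposited table. Of 12 NRF2 targets outside the 3 families, 5 fell and 3 rose in wild type, beside the same 19% and 18.1% of all tested loci.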

How the data were processed

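Poly(A) RNA of 12 mouse livers in 4 groups of 3 was sequenced. Per the submitters' processing notes, bcl2fastq, TopHat2 2.0.4 (build mm9), Cufflinks and Cuffdiff were used; the sources used here do not state annotation, filters or normalization between libraries. Per the file headers, the authors' deposited table holds 1 FPKM per locus and group, and for each of 6 comparisons a test statistic (a score), p-value, q-value and log2 fold change. The deposited q equals a Benjamini-Hochberg adjustment over all 90828 tests of the 6 comparisons (largest gap 5.29e-07). Depth is unknown and precision rests on the authors' test.

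From these values the following were computed. A locus was called at a deposited q under 0.05 with test status OK. The SE of a log2 change is its size divided by the test statistic, times a scale per comparison (from 0.575 to 0.578). This scale is a median over many loci, so the scaled statistic gives about the deposited p at a typical locus. It need not do so at each locus, and does not at that of Sult2a1. The test of the difference of responses was first run on simulated data with large differences, where statistic and p agreed by construction. That run cannot show how the test behaves where they conflict, as at the locus of Sult2a1. Nothing pairs samples across groups. The deposited p-values are those of the authors' Cuffdiff test on 3 libraries per group and apply to these samples only. How much of each reflects the spread between mice cannot be told. The members and gene lists were chosen with earlier results of these data known. Every member may be named; values are printed for those called in any comparison and the 5 most abundant of each class, and other genes only from the lists, of whose 163 genes 161 matched. The lists hold 10 pathway and 10 marker sets. Alternatives changed the q rule, a 2-fold minimum, centring, a pseudocount of 1, an FPKM minimum of 1, merged loci and the SE. Python 3.11.15, pandas 2.3.3, scipy 1.17.1 and matplotlib 3.10.9 were used. Promoters and coordinates printed with them are RefSeq, GRCm38.p6; locus positions are mm9.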

Additional observations from a re-analysis of the deposited data

Results flagged for a closer look

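For the merged locus of Sult2a1, Sult2a3 and Sult2a4, the tunicamycin response differed between genotypes by 0.868 on the log2 scale (knockout minus wild type, SE 0.159, adjusted p 2.07e-05 by a normal test with Benjamini-Hochberg adjustment). The difference did not pass with an SE from the deposited p (SE 1.10, p 0.428).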

How the results depend on the processing

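Of 150 checks of summary values, 133 stayed within 1.5 times or kept direction and threshold, and 17 moved. A median could shift in size and still count as kept. For knockout against wild type, the GST median with DMSO went from -0.138 to -0.046 on centring and was so counted. The UGT median with tunicamycin, which went from -0.251 to -0.146 over single-symbol loci, was too. For loci lower in the knockout with DMSO, the UGT count of 2 became 0 with q adjusted within the comparison, 1 at q under 0.01 and 0 with a 2-fold minimum, and the SULT count of 2 became 0, 1 and 0, and 1 over loci with a single symbol. For loci lower in the knockout with tunicamycin, the SULT count of 1 became 0 in all 4 of these settings, and the GST count of 2 became 0 in the first 3. The SULT count of 10 lower with tunicamycin in wild type became 4 at q under 0.01. The 1 called difference between responses became 0 with an unscaled SE and 0 with an SE from the deposited p, the latter chosen after seeing the data, as was leaving out loci that repeat another. The cause of these shifts was not tested, apart from the stricter thresholds themselves. Of 163 member tests, 13 lost their call at q under 0.01, and 7 with q adjusted within the comparison. Centring on all loci changed the sign of no called value and of 5 values that were not called. No paired analysis was possible because the deposited table holds 1 value per group. For the same reason no library could be left out, and depth limits cannot be stated.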

Other observations

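The stretch of chromosome 5 that holds the Ugt2 and Sult1 genes also carried 9 loci with no gene name. Of these, 6 were tested in wild type, where 2 fell with tunicamycin and none rose, and 9 in the knockout, where 3 fell and none rose, beside 19% and 14.8% of all tested loci that fell. Among the 12 member loci of the same stretch 9 fell in wild type and 6 in the knockout. In the Gstm stretch of chromosome 3, 1 of 6 member loci fell in each genotype, near those shares, and neither of the 2 other tested loci did.

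The letters TGACNNNGC, the core of the antioxidant response element, occur on either strand in 12.4% of RefSeq promoters of this length. Among the 51 symbols examined that matched a promoter, 3 hold them, Gsta3, Gstm5 and Gstm7, a share not above that of all promoters. Gsta3 and Gstm7 fell with tunicamycin in both genotypes and Gstm5 was not called. The letters TGATGNAA, a composite C/EBP and ATF element, occur in 3.97% of promoters and in 1 of these 51 symbols, Sult1e1. No match in the others says only that these letters are not in those windows.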
